A study of Mus musculus with 18 samples.

Results

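Transcripts of 10 genes that mark neutrophils were followed through the first 72 h of a myocardial infarction in the mouse: the alarmins S100a8 and S100a9, the granule protein genes Lcn2, Ngp, Camp and Ltf, the neutrophil products Retnlg and Ly6g, and the formyl peptide receptors Fpr1 and Fpr2. They were taken by symbol, as a named set, from the 30583 genes of the deposited count table. All 10 were found, and 8 of them were among the 16311 genes with enough counts to be tested; Camp and Ltf were not. The study sequenced poly(A)-selected RNA from the left ventricles of 18 male C57BL/6JR mice aged 12 weeks, 3 in each of 6 groups, with 1 library per mouse. In 5 groups the left anterior descending coronary artery was tied, and hearts were taken 10 min later, or after 1, 6, 24 or 72 h. The sham group had the suture passed under the artery and left untied. All mice were anaesthetised with pentobarbital and isoflurane, so the sham group shares the anaesthesia and the open-chest operation with the others. Per the labels the RNA came from myocardium of the infarcted left ventricle. A cell type field says cardiomyocytes, but no separation of cells is described, and leukocyte, fibroblast and endothelial marker transcripts were present in all libraries. The libraries were therefore read as whole tissue. In such bulk RNA, fewer cells of a type and less RNA per cell cannot be told apart.

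Neutrophils are the first leukocytes to enter infarcted heart muscle in number. S100A8 and S100A9 pair as calprotectin, which makes up much of the neutrophil's cytosolic protein and, once released, signals through Toll-like receptor 4 and the receptor for advanced glycation end products. Granule proteins are made in sequence as neutrophils mature in the bone marrow: myeloperoxidase and elastase in primary granules at the promyelocyte stage, then lactoferrin (Ltf), cathelicidin (Camp), neutrophilic granule protein (Ngp) and lipocalin 2 (Lcn2) in secondary granules at the myelocyte stage. Mature neutrophils in tissue carry these proteins but have largely lost the messenger RNA of the primary and secondary granule genes, while S100a8 and S100a9 messenger RNA stays abundant in them. Lipocalin 2, which binds bacterial siderophores, is also made by many other cell types during inflammation. The formyl peptide receptors sense peptides from bacteria and from the mitochondria of dying cells.

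S100a8 and S100a9 lie 26.7 kb apart, start to start, on chromosome 3 and point in opposite directions: S100a8 spans chr3:90668978-90670035 on the plus strand and S100a9 chr3:90692632-90695721 on the minus strand (GRCm38, GENCODE M21). Lcn2 spans chr2:32384633-32388252 on the minus strand. The sequences before the RefSeq starts of these 3 genes are shown because they had the highest levels of the set, and because Lcn2 varied between libraries otherwise than the alarmin pair. They come from the RefSeq promoter table (GRCm38.p6), are written 5′ to 3′ on the gene's strand, and hold the bases up to 250 before the RefSeq start that lie outside any untranslated region in GENCODE. The regions are chr3:90668821-90668977 for S100a8, chr3:90695722-90695971 for S100a9 and chr2:32387798-32387989 for Lcn2. RefSeq and GENCODE place the starts of S100a8 and Lcn2 differently, and the Lcn2 region lies inside the GENCODE span given above. Capitals mark matches, on either strand, to TTNNGNAA, a pattern for C/EBP factors, or to an NF-kB pattern, GGG and CC with any 5 bases between them.
S100a8: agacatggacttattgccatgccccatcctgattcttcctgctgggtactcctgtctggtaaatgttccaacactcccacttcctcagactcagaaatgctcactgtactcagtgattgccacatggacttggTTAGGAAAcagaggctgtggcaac
S100a9: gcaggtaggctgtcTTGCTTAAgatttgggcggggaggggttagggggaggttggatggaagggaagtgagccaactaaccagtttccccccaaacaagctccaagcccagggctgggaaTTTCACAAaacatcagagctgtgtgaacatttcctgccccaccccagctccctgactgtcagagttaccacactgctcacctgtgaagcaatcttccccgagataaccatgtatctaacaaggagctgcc
Lcn2: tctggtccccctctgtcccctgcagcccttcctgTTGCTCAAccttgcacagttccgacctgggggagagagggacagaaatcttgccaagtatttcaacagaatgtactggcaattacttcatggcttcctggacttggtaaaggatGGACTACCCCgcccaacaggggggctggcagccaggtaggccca
S100a8 has 1 match to the C/EBP pattern and S100a9 has 2, and neither has a match to the NF-kB pattern. Lcn2 has 1 of each, the C/EBP match TTGCTCAA and the NF-kB match GGACTACCCC, which do not overlap. Among 32851 promoters searched over the same 250 bases, 36.8% held the first pattern, 45.8% the second and 13.1% both. Of the other genes searched, Ngp had 3 C/EBP matches and no NF-kB match, Ltf had 2 and 3, the last partly overlapping each other, and Camp had none. Retnlg had 1 C/EBP match, Fpr1 had 3 and Fpr2 had 2, all without an NF-kB match. Ly6g had matches to both patterns in each of its 2 promoters searched. These are matches of letters, not measured binding sites.

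Libraries held 18.2 to 25.1 M (mega) counts, and bounds against a group at 0 use a floor of 3 counts per library. Levels are given as CPM, counts per M counts after TMM scaling of the libraries, and a gene was called where the edgeR adjusted p was under 0.05 over all 16311 genes. Among the groups in which the genes were high, 2 libraries led: replicate 1 at 6 h was the highest of its group for 9 of the 10 (all but Camp), and replicate 3 at 24 h for all 10. At 10 min replicate 1 was the highest for 6 of the 10, at far lower levels. Folds against sham that move by over 1.5 times without either of these 2 are given both ways. In the 3 libraries at 6 h the summed monocyte markers (8 genes) ran 289, 216 and 147 CPM for replicates 1, 2 and 3, and the platelet markers (6 genes) 72.1, 32.4 and 22.9 CPM. At 24 h the sums were 535, 421 and 1260 CPM for monocytes and 56.8, 40.7 and 104 CPM for platelets, and the cardiomyocyte markers (8 genes) were lowest in replicate 3, at 24900 CPM against 38000 and 39000 CPM. A single gene that other cells also make took much of 2 of these sums. Fn1, fibronectin, gave 31.8% to 59.3% of the monocyte sum in the 6 libraries. Pf4, platelet factor 4, gave 41.6% to 83.3% of the platelet sum. Without Fn1 the other 7 monocyte markers ran 178, 148 and 90.5 CPM at 6 h and 235, 174 and 514 CPM at 24 h. Without Pf4 the other 5 platelet markers ran 42.1, 11.8 and 9.64 CPM and 14.8, 6.79 and 32.8 CPM. Leaving these genes out was a choice made after seeing the data. No monocyte, platelet or cardiomyocyte marker was at 0 in these libraries. Not every marker list ran in the order of the monocyte sums at both times. The red blood cell markers (5 genes) ran 1140, 694 and 1450 CPM at 6 h and 727, 414 and 846 CPM at 24 h. The macrophage markers (9 genes) ran 290, 305 and 264 CPM and 394, 449 and 371 CPM. The endothelial markers (4 genes) ran 1270, 947 and 1030 CPM and 683, 781 and 828 CPM. B cell markers (4 genes) kept the monocyte order at 6 h, at 5.07, 3.44 and 2.66 CPM. T cell markers (5 genes) did too, at 2.26, 2.06 and 1.86 CPM. The part of cell content in the differences between replicates was not tested.

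Most of the genes rose between 1 h and 6 h, stood high at 6 h and 24 h and were lower at 72 h. At 72 h Lcn2 was 6.38 CPM against 2.83 CPM in sham, and S100a8 9.99 CPM against 0.574 CPM. At 10 min and at 1 h, 0 of the 8 tested genes were called against sham; 0.0736% and 0.294% of all genes tested were called there, DESeq2 also called 0 of the 8, and 1144 and 899 of all genes had an unadjusted p under 0.05. Fitted on the 6 libraries of 1 h and sham alone, 3 of the 8 were called at 1 h, S100a8, S100a9 and Retnlg. That fit called 1.28% of all genes tested. At 6 h all 8 tested genes were called higher, beside 28.4% of all genes called and 16.3% called higher. At 24 h 7 of 8 were called higher, all but Ly6g, beside 43.8% called and 23.7% called higher. At 72 h 4 of 8 were called higher, S100a8, S100a9, Lcn2 and Fpr2, beside 66.4% called and 34.2% called higher. These comparisons share the 3 sham libraries. Ly6g and Ngp passed the filter on low counts only through libraries of 6 h and 24 h. Fpr1 and Fpr2 passed it only through libraries of 6, 24 and 72 h. The calls of these genes at those times are thus not separate from the filter. All 3 libraries lay above all 3 sham libraries for 1 of the 8 at 10 min, 4 at 1 h, 8 at 6 h, 7 at 24 h and 5 at 72 h, where this held for 11%, 8.25%, 23.1%, 28% and 39.3% of all genes tested. An F test over the 6 groups called all 8, beside 78.4% of all genes.

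**Figure D1:**
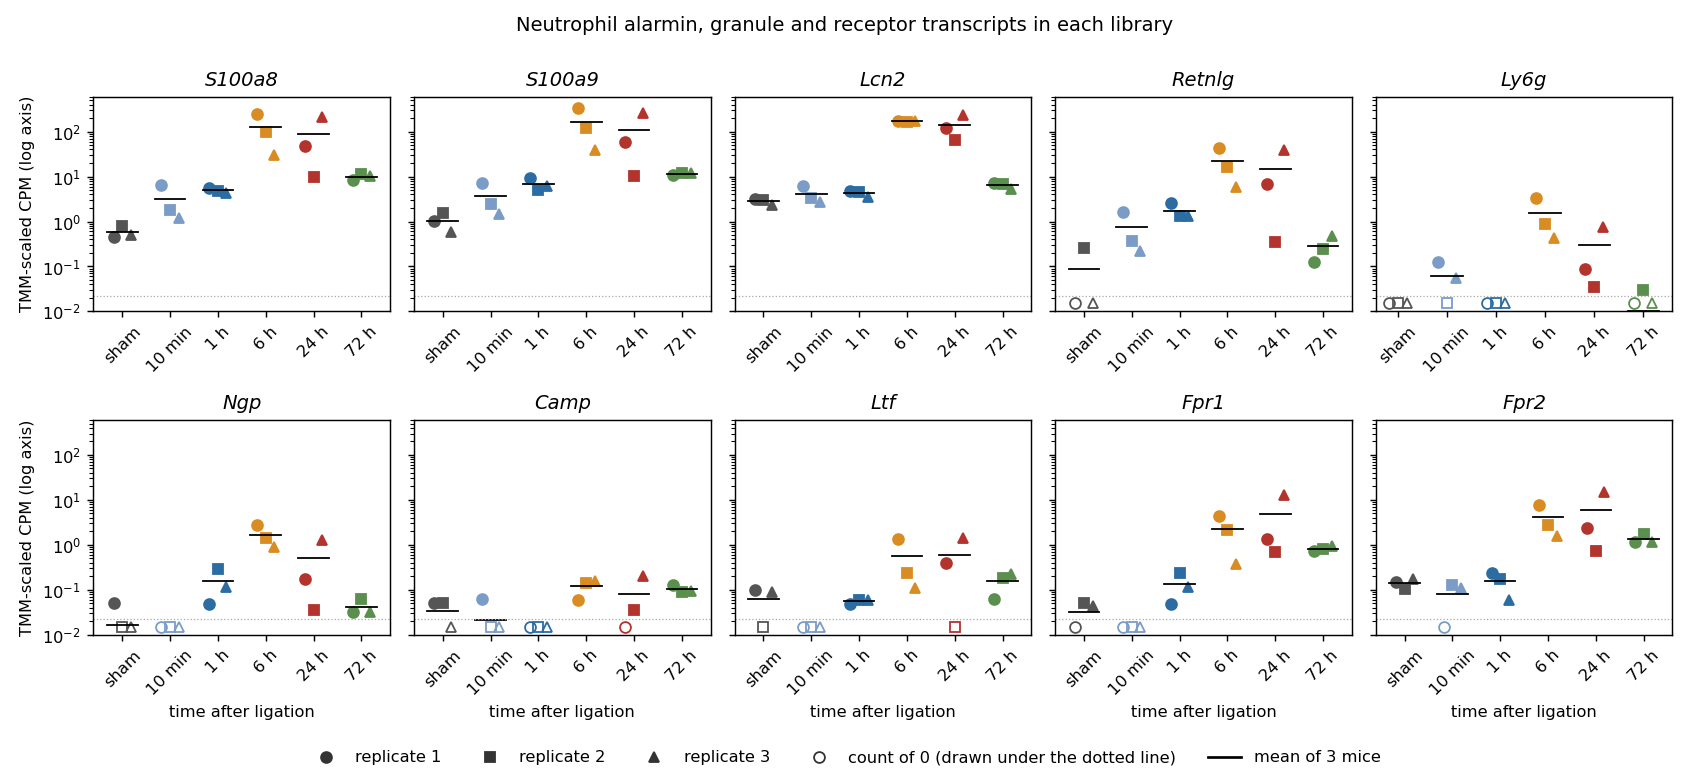
TMM-scaled CPM (log axis) of the 10 genes in each of the 18 libraries, by group; symbols are replicates, lines are means of 3 mice, and open symbols under the dotted line are counts of 0. S100a8 and S100a9 spread 8.18-fold and 8.63-fold among the 3 libraries at 6 h, where Lcn2 spread 1.07-fold.

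S100a8 and S100a9 rose at 6 h and were called higher than sham at 6, 24 and 72 h, with a wide spread between mice at 6 h and 24 h. The S100a8 counts were 9, 15 and 11 in the sham libraries, 104, 42 and 21 at 10 min, 118, 79 and 75 at 1 h, 4190, 2028 and 573 at 6 h, 1133, 274 and 4033 at 24 h and 270, 367 and 323 at 72 h. As CPM, S100a8 was 0.574 ± 0.178 in sham, 126 ± 112 at 6 h, 88.8 ± 105 at 24 h and 9.99 ± 1.35 at 72 h (SD, n = 3). At each time after ligation every library was above every sham library. The log2 fold change against sham was 7.77 (SE 1.35, edgeR adjusted p = 0.00113) at 6 h, 7.27 (SE 1.34, adjusted p = 0.000937) at 24 h and 4.12 (SE 1.39, adjusted p = 0.0191) at 72 h. Its early values of 2.39 at 10 min and 3.10 at 1 h did not pass the test (edgeR adjusted p = 0.855 and 0.921).

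S100a9, the partner subunit, kept close to S100a8. The S100a9 counts were 20, 30 and 13 in sham, 117, 59 and 26 at 10 min, 194, 84 and 105 at 1 h, 5621, 2533 and 729 at 6 h, 1379, 285 and 4943 at 24 h and 341, 396 and 378 at 72 h. The groups at 1 h and later did not overlap with sham, while the lowest library at 10 min lay under the highest sham library. Its log2 fold change was 7.32 (SE 1.32, edgeR adjusted p = 0.00142) at 6 h, 6.70 (SE 1.30, adjusted p = 0.0013) at 24 h and 3.49 (SE 1.31, adjusted p = 0.0311) at 72 h. Per 100 counts of S100a9, the same library held 74.5 to 80.1 counts of S100a8 at 6 h, 81.6 to 96.1 at 24 h and 79.2 to 92.7 at 72 h. The 2 transcripts thus kept a narrow ratio at 6 h and 24 h while each spread many-fold: at 24 h the highest library exceeded the lowest 21.5-fold for S100a8 and 25.3-fold for S100a9. At 72 h the spread was 1.31-fold and 1.12-fold. Replicate 3 alone gave 78% of the summed S100a8 CPM at 24 h, and without it the mean of the other 2 libraries was 29.3 CPM. The log2 fold changes against sham were then 5.66 for S100a8 and 5.06 for S100a9 at 24 h (edgeR adjusted p = 0.00317 and 0.00499), and without replicate 1 at 6 h they were 6.80 and 6.28 there (adjusted p = 0.00386 and 0.00497). Between 24 h and 72 h both fell, by 3.15 (SE 0.95, edgeR adjusted p = 0.0142) for S100a8 and by 3.21 (SE 0.98, adjusted p = 0.0155) for S100a9 on the log2 scale. Both calls were lost without replicate 3 at 24 h, and that of S100a9 also without replicate 1 at 72 h. Replicate 2 at 24 h, with 9.69 CPM of S100a8, lay among the 72 h libraries (8.52 to 11.2 CPM).

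Lcn2 rose at 6 h and 24 h, was even between mice at 6 h, and fell between 24 h and 72 h. The Lcn2 counts were 63, 58 and 52 in sham, 99, 80 and 49 at 10 min, 99, 76 and 61 at 1 h, 2936, 3429 and 3157 at 6 h, 2858, 1835 and 4652 at 24 h and 226, 222 and 165 at 72 h. Its level was 2.83 ± 0.463 CPM in sham, 169 ± 5.52 at 6 h, 143 ± 89.1 at 24 h and 6.38 ± 0.995 at 72 h (SD, n = 3). At 6 h the 3 libraries had 175, 164 and 168 CPM of Lcn2 where they had 335, 121 and 38.8 CPM of S100a9. The SD of log2 CPM among the 6 h libraries was 0.05 for Lcn2, in the lowest 4.24% of all genes tested, and 1.55 for S100a9, higher than 99.7% of them. The median gene had 0.22. Among 695 genes of like level at 6 h, Lcn2 lay in the lowest 8.33%, and S100a9 lay above 99.9% of the genes of its level. Counts of Lcn2 per 100 counts of S100a9 ran from 52.2 to 433 at 6 h and from 94.1 to 644 at 24 h. The log2 fold change of Lcn2 was 5.90 (SE 0.45, edgeR adjusted p = 1.6e-06) at 6 h, 5.66 (SE 0.44, adjusted p = 1.14e-06) at 24 h and 1.18 (SE 0.44, adjusted p = 0.0289) at 72 h. Between 24 h and 72 h Lcn2 fell by 4.48 (SE 0.40, edgeR adjusted p = 6.51e-07), with no overlap between the groups; 2 of the 8 tested genes, Lcn2 and Ly6g, had all 72 h libraries below all 24 h libraries, as had 26.5% of all genes. The Lcn2 call held with any 1 library of those groups left out. Without replicate 3 at 24 h its log2 fold change against sham at that time was 5.06 (edgeR adjusted p = 6.81e-08).

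**Figure D2:**
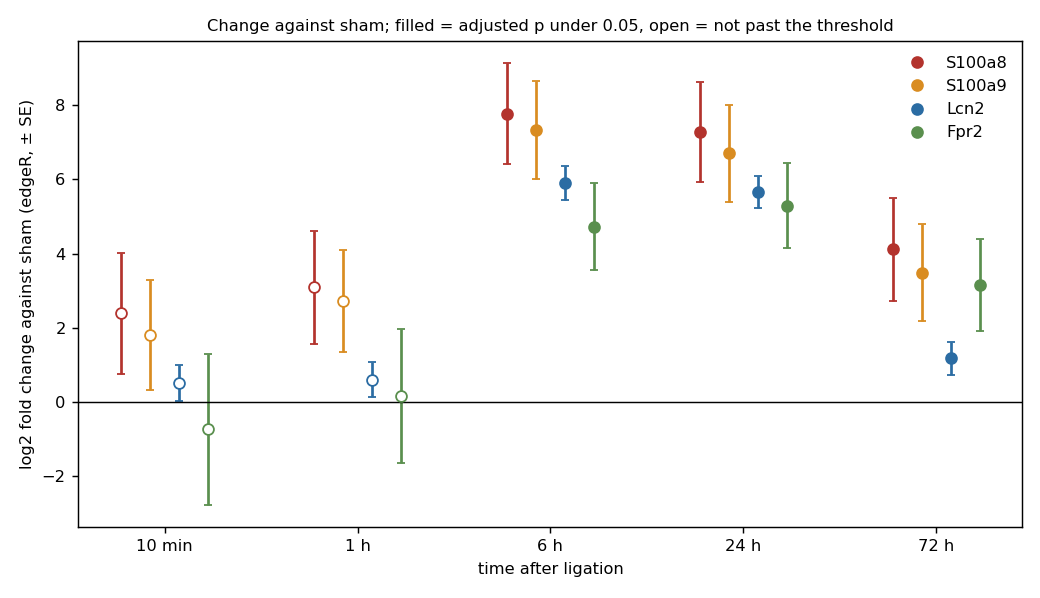
Log2 fold change against sham (edgeR, bars ± SE, 18 libraries in the fit) at each time for S100a8, S100a9, Lcn2 and Fpr2; filled points have an adjusted p under 0.05. Lcn2 has the narrowest bars and goes from 5.66 at 24 h to 1.18 at 72 h, while S100a8 goes from 7.27 to 4.12.

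**Figure D3:**
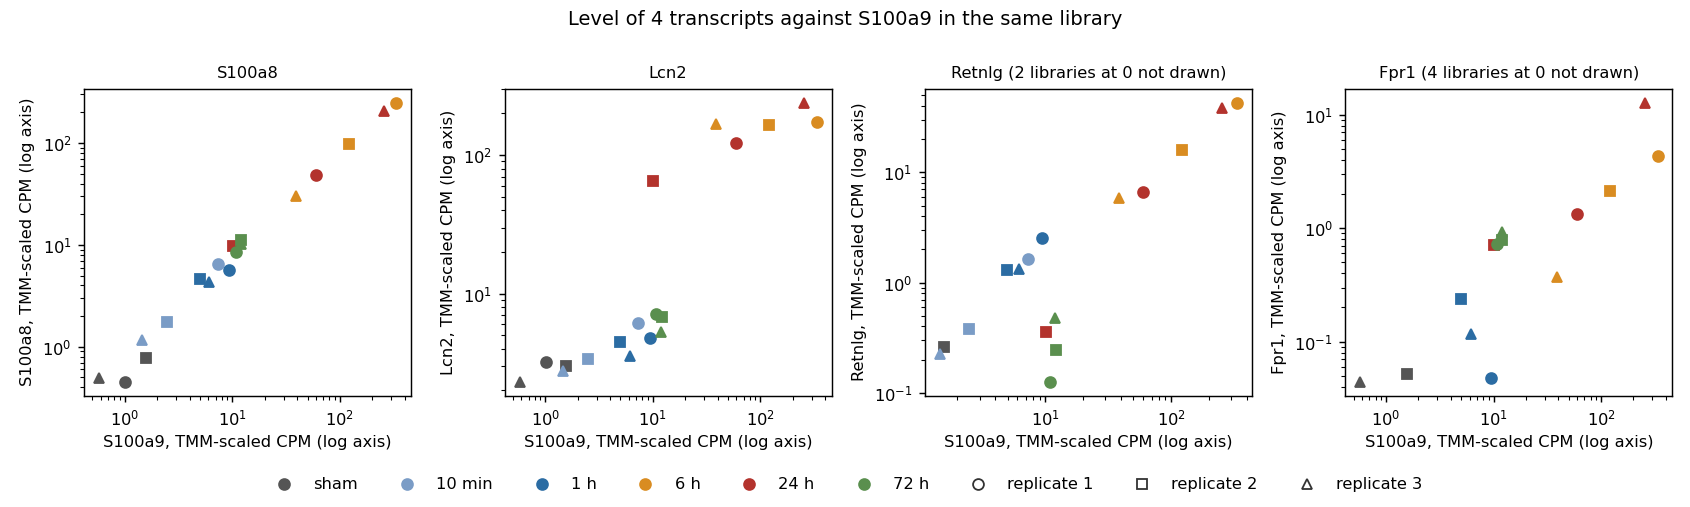
S100a8, Lcn2, Retnlg and Fpr1 against S100a9 in the same library (TMM-scaled CPM, log axes; colour is the group, symbol the replicate, libraries at 0 not drawn). S100a8 follows S100a9 across groups, while Lcn2 in the 3 libraries at 6 h stays at 164 to 175 CPM as S100a9 runs from 38.8 to 335 CPM.

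Retnlg, a resistin-like protein made by mature neutrophils, and Ly6g, the surface antigen by which mouse neutrophils are usually identified, had their highest means at 6 h and were not called against sham at 72 h. For Retnlg the order of 6 h and 24 h was not called (edgeR adjusted p = 0.727) and turned without replicate 1 at 6 h, when the mean of the other libraries was 11 CPM against 15 CPM at 24 h. The Retnlg counts were 0, 5 and 0 in sham, 26, 9 and 4 at 10 min, 53, 22 and 23 at 1 h, 721, 335 and 111 at 6 h, 155, 10 and 738 at 24 h and 4, 8 and 15 at 72 h. The 1 h libraries lay above all sham libraries, but the log2 fold change of 4.34 did not pass the test (edgeR adjusted p = 0.934). Retnlg rose at 6 h (edgeR log2 fold change 7.95 with SE 1.80, adjusted p = 0.00558) and at 24 h (7.41, SE 1.82, adjusted p = 0.00533), and at 72 h its value of 1.72 was not called (adjusted p = 0.616), with a pooled level 3.46 times that of sham (95% counting interval 1.32 to 11.5) and libraries that overlapped. Without replicate 1 at 6 h its log2 fold change there was 6.98, and without replicate 3 at 24 h it was 5.30 at that time (edgeR adjusted p = 0.0189 and 0.0322). It fell by 5.69 (SE 1.42, edgeR adjusted p = 0.00462) between 24 h and 72 h, although replicate 2 at 24 h, with 0.354 CPM, lay within the 72 h range.

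Ly6g had 57, 18 and 8 counts at 6 h and 2, 1 and 15 at 24 h, no count in any sham or 1 h library, 2, 0 and 1 counts at 10 min and 1 count in the 3 libraries at 72 h. All sham libraries being at 0, its rise at 6 h is a lower bound: the mean level was at least 10.6-fold higher than that of 3 counts per library (edgeR adjusted p = 0.0056). Replicate 1 gave 72.5% of the summed 6 h level, and without it the rise was at least 4.38-fold (edgeR adjusted p = 0.0157). At 24 h the level was at least 2.03-fold higher and was not called (adjusted p = 0.0743); it was called without replicate 2 at 24 h (edgeR adjusted p = 0.0413). Replicate 3 gave 86.4% of the summed 24 h level, and without it the mean of 0.0608 CPM lay under the sham floor of 0.147 CPM, so no bound was left (edgeR adjusted p = 0.321). Of the 50-base stretches of Ly6g transcripts, 0.448% also occur in Ly6i or a predicted gene.

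The secondary granule genes Ngp, Camp and Ltf, all on chromosome 9, were scarce. Ngp, a cathelicidin-related granule protein (chr9:110419747-110423012, plus strand), had 1, 0 and 0 counts in sham, 46, 30 and 17 at 6 h, 4, 1 and 25 at 24 h and 1, 2 and 1 at 72 h. Its pooled level at 6 h was 101 times that of sham (95% counting interval 17.8 to 4050, from 1 sham count; edgeR adjusted p = 0.0017), with every 6 h library above every sham library. At 24 h the ratio was 26.1 (4.34 to 1060, edgeR adjusted p = 0.0231), with overlap, and that call was lost without replicate 3 at 24 h (ratio 5.98, 0.67 to 283) or without sham replicate 2 or 3. Ltf, the iron-binding lactoferrin (chr9:111019271-111042767, plus strand), had 2, 0 and 2 counts in sham, 23, 5 and 2 at 6 h, 9, 0 and 27 at 24 h and 2, 6 and 7 at 72 h. With too few counts for the main test, Ltf had an edgeR adjusted p of 0.272 at 6 h and 0.203 at 24 h when no filter on low counts was used. Camp, the precursor of the antimicrobial peptide CRAMP (chr9:109847379-109849617, minus strand), had at most 4 counts in any library and 10 in all 3 libraries at 72 h, and was not called without the filter either (edgeR adjusted p = 0.479 at 6 h). A change of Camp was not detectable at this depth. Per kilobase of transcript, the mean level at 6 h was 316 ± 293 CPM for S100a9, 181 ± 162 for S100a8, 64.5 ± 2.10 for Lcn2, 35.6 ± 31.5 for Retnlg, 3.13 ± 2.59 for Fpr2, 1.70 ± 1.48 for Fpr1, 1.66 ± 1.70 for Ly6g, 1.39 ± 0.773 for Ngp, 0.166 ± 0.201 for Ltf and 0.160 ± 0.0709 for Camp (SD, n = 3). Of neighbours in this order, Retnlg and Fpr2, and Ngp and Ltf, had libraries that did not overlap. The other pairs overlapped. Within each single 6 h library, S100a9 still lay above S100a8 and Fpr2 above Fpr1. The remaining overlapping pairs changed order between libraries.

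Fpr1 and Fpr2 were called higher than sham at 6 h and 24 h, and Fpr2 also at 72 h. They lie side by side on chromosome 17, Fpr1 at chr17:17876471-17883940 on the minus strand and Fpr2 at chr17:17887824-17893952 on the plus strand, with their starts 3.9 kb apart. The Fpr1 counts were 0, 1 and 1 in sham, 72, 44 and 7 at 6 h, 31, 20 and 249 at 24 h and 23, 26 and 29 at 72 h. Pooled, Fpr1 was 67.1 times its sham level at 6 h (95% counting interval 18.2 to 560, edgeR adjusted p = 0.0238), 130 times at 24 h (35.8 to 1080, adjusted p = 0.0041) and 25 times at 72 h (6.7 to 210, adjusted p = 0.0559), where it was not called although all 72 h libraries exceeded all sham libraries. Without replicate 3, which gave 86.3% of the summed 24 h level, the ratio at 24 h was 30.5 (8.03 to 259, edgeR adjusted p = 0.00407), and without replicate 1 at 6 h the ratio there was 39.6 (10.4 to 336). The call at 6 h was lost without any 1 of the sham libraries or without replicate 1 at 6 h.

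Fpr2 had 3, 2 and 4 counts in sham, 132, 58 and 29 at 6 h, 56, 21 and 289 at 24 h and 36, 58 and 36 at 72 h. The log2 fold change of Fpr2 was 4.73 (SE 1.16, edgeR adjusted p = 0.00764) at 6 h, 5.29 (SE 1.14, adjusted p = 0.00199) at 24 h and 3.16 (SE 1.23, adjusted p = 0.0339) at 72 h. Without replicate 1 at 6 h its value there was 3.84 (edgeR adjusted p = 0.0364), and without replicate 3 at 24 h the value at that time was 3.36 (adjusted p = 0.00408). The sham group and the 3 late groups did not overlap. Between 24 h and 72 h, Fpr1 fell by 2.57 (SE 0.97, edgeR adjusted p = 0.0423) and Fpr2 by 2.13 (SE 0.81, adjusted p = 0.0404), and both calls were lost without replicate 3 at 24 h or without any 1 of the 72 h libraries. Of the 50-base stretches of Fpr2 transcripts, 31.5% also occur in Fpr1, Fpr3 or a predicted gene, and Fpr2 exons overlap those of Fpr3 on the same strand, so the Fpr2 counts are uncertain to that extent. Fpr3 itself had at most 1 count in any library.

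At 72 h the count of 4 called genes rested on few libraries. It was 0 without sham replicate 3 and 1 without sham replicate 1, without sham replicate 2 or without replicate 2 at 72 h. S100a8 was lost without sham replicate 1 or 3, S100a9 without any 1 of the sham libraries or replicate 2 or 3 at 72 h, Fpr2 without any 1 of the sham libraries or replicate 2 at 72 h, and Lcn2 without sham replicate 2 or 3 or replicate 1 or 2 at 72 h. Between 24 h and 72 h, 7 of the 8 tested genes were called lower, all but Ly6g, beside 50.5% of all genes called and 26.1% called lower. The count was 2 when replicate 3 of 24 h was left out, 3 without replicate 1 and 4 without replicate 3 of 72 h. Without the first of these libraries Lcn2 and Retnlg were left, and without either of the others Ngp, Fpr1 and Fpr2 were lost. From 6 h to 24 h, 0 of the 8 were called, beside 27.8% of all genes; DESeq2 also called 0, and 6371 of all genes had an unadjusted p under 0.05. The count was 3 when replicate 3 of 24 h was left out, and 1 when replicate 3 of 6 h was. Again 3 genes, Lcn2, Ly6g and Ngp, were called lower when replicate 1 at 6 h and replicate 3 at 24 h were both left out, a choice made after seeing the data. Between 1 h and 6 h, 7 of 8 were called higher, all but Fpr1 (edgeR adjusted p = 0.0557), beside 24.5% of all genes called and 14.5% called higher. Leaving out replicate 1 of 6 h gave 4, with Retnlg, Ngp and Fpr2 no longer called. Retnlg was also lost without replicate 2 at 6 h or without any 1 of the 1 h libraries, and Ngp without replicate 1 at 1 h. Between 10 min and 1 h, 0 were called, beside 0.307% of all genes; DESeq2 also called 0, and 1212 genes had an unadjusted p under 0.05.

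Since most of the genes were highest in the same library at 6 h and at 24 h, each gene was also counted per 100 counts of S100a9 in the same library. This comparison was chosen after the levels had been seen. With 3 libraries a group, the exact permutation test cannot go below p = 0.1, so these are descriptions. Ly6g ran from 0.711 to 1.1 counts per 100 S100a9 counts at 6 h and from 0.145 to 0.351 at 24 h, and Ngp from 0.818 to 2.33 and from 0.29 to 0.506. For both, every 24 h library lay below every 6 h library (exact permutation p = 0.1, two-sided), and the same held with S100a8 or Csf3r, the G-CSF receptor gene, in the denominator. At 24 h these ratios rested on 2, 1 and 15 counts of Ly6g and 4, 1 and 25 of Ngp. Camp ran from 0.0178 to 0.412 at 6 h and from 0.758 to 1.17 at 72 h, on 7 and 10 counts in all. Ltf ran from 0.197 to 0.409 and from 0.587 to 1.85, on 30 and 15 counts. For Camp and Ltf every 72 h library lay above every 6 h library, also with S100a8 in the denominator. With Csf3r in the denominator the 2 times overlapped. Retnlg ran from 12.8 to 15.2 at 6 h, 3.51 to 14.9 at 24 h and 1.17 to 3.97 at 72 h, with all 72 h libraries below all 6 h libraries under each of the 3 denominators. Fpr1 ran from 0.96 to 1.74 at 6 h, 2.25 to 7.02 at 24 h and 6.57 to 7.67 at 72 h, and Fpr2 from 2.29 to 3.98, 4.06 to 7.37 and 9.52 to 14.6. The rise of both receptors from 6 h to 72 h relative to S100a9 turned into a fall relative to Csf3r, with log2 differences of pooled counts of -1.57 for Fpr1 and -1.66 for Fpr2. For Fpr1 the 72 h and 6 h libraries then overlapped (3.16 to 3.52 and 2.68 to 16.7 counts per 100 Csf3r counts, exact permutation p = 0.4, two-sided), and for Fpr2 they did not. Csf3r itself was 23.6 ± 17.8 CPM at 6 h, 46.2 ± 47.5 at 24 h and 24.8 ± 3.78 at 72 h (SD, n = 3). Over the same times the summed monocyte markers were 147 to 289, 421 to 1260 and 1640 to 2330 CPM. Fn1 gave 76.3% to 81.2% of that sum at 72 h, and the other 7 genes summed to 90.5 to 178 CPM at 6 h, 174 to 514 at 24 h and 354 to 438 at 72 h. The macrophage markers (9 genes) summed to 264 to 305, 371 to 449 and 2400 to 2960 CPM, and no marker of either list was at 0. Their part in the ratios was not tested.

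**Figure D4:**
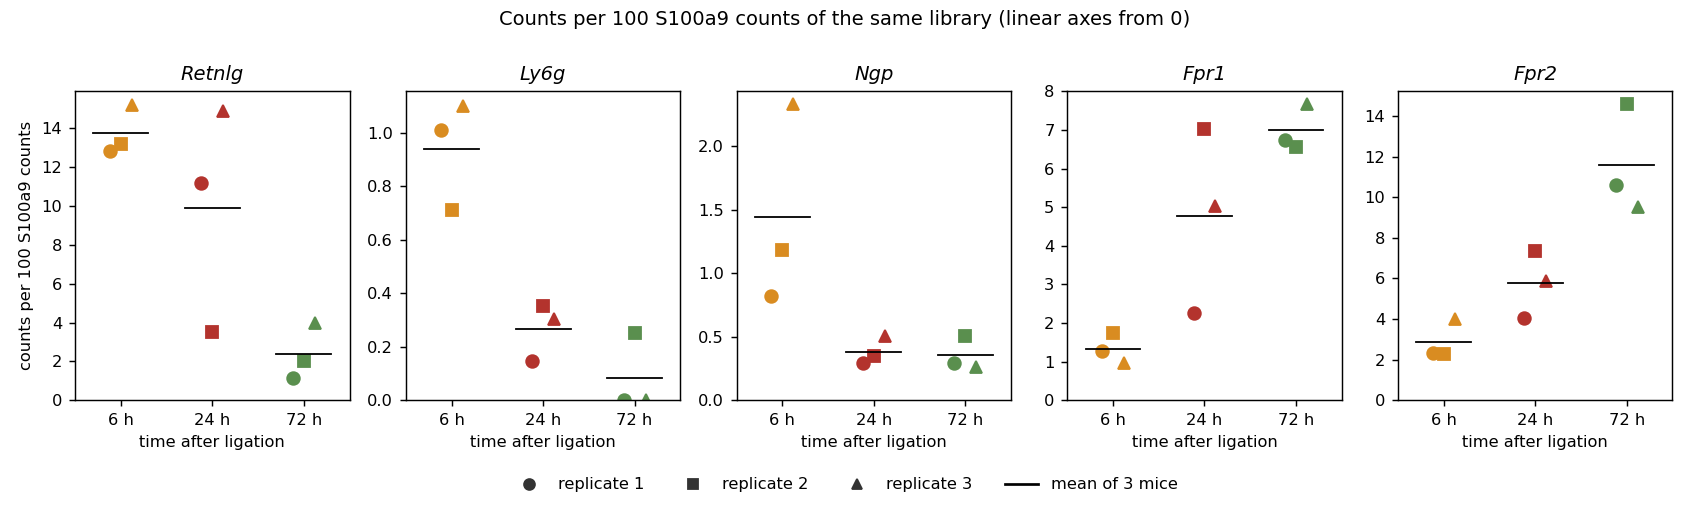
Counts of Retnlg, Ly6g, Ngp, Fpr1 and Fpr2 per 100 S100a9 counts of the same library at 6, 24 and 72 h (linear axes from 0; lines are means of 3 mice). Retnlg, Ly6g and Ngp have their highest means at 6 h, Fpr1 and Fpr2 at 72 h, where Fpr2 reaches 9.52 to 14.6.

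Primary granule genes, made earlier in neutrophil development, had few counts at 6 h. Of 7 listed, 6 were in the table and only Prtn3, proteinase 3, was tested. Prtn3 had 2 to 5 counts per library at 6 h and was not called (edgeR adjusted p = 0.208), then rose at 24 h (edgeR log2 fold change 3.63 with SE 0.71, adjusted p = 0.000602) and 72 h (5.06, SE 0.64, adjusted p = 1.3e-06), to 53 to 65 counts. Mpo, myeloperoxidase, had no count before 24 h, 1 to 4 per library at 24 h and 8 to 16 at 72 h. Elane, neutrophil elastase, had at most 2. Of 14 other secondary and tertiary granule genes 11 were tested, and 7, 9 and 8 were called higher at 6, 24 and 72 h and 1 lower at each time (medians of log2 fold change 3.49, 5.60 and 4.48, where all genes had -0.01, 0.01 and 0.03). Beside them, 28.4%, 43.8% and 66.4% of all genes tested were called, and 16.3%, 23.7% and 34.2% called higher. Lyz2, lysozyme, which macrophages also make, was 129 ± 11.3 CPM in sham, 143 ± 36.0 at 6 h (edgeR adjusted p = 0.518) and 2370 ± 387 at 72 h. Cybb, the catalytic subunit of the phagocyte oxidase, went from 9.49 ± 0.949 to 105 ± 0.953 CPM at 72 h, and Ceacam1 was the gene called lower at each time (edgeR log2 fold change -1.39 at 72 h, adjusted p = 5.05e-08).

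Of 25 genes of the neutrophil surface and of mature neutrophils, 21 were tested, and 20, 20 and 14 were called higher at 6, 24 and 72 h, with 0, 0 and 2 lower (medians 5.40, 6.07 and 4.29). Of all genes tested, 28.4%, 43.8% and 66.4% were called at these times, and 16.3%, 23.7% and 34.2% were called higher. Itgb2, the beta-2 integrin chain of all leukocytes, and Padi4, the enzyme that citrullinates histones in neutrophil extracellular traps, rose to 72 h: Itgb2 was 5.65 ± 0.649 CPM in sham, 18.6 ± 9.64 at 6 h and 110 ± 11.1 at 72 h, and Padi4 0.474 ± 0.0784, 1.39 ± 0.657 and 6.04 ± 0.832. Lrg1, a secreted glycoprotein, rose to 236 ± 42.7 CPM at 6 h from 43.7 ± 3.64 in sham and was below sham at 72 h (edgeR log2 fold change -0.89, SE 0.28, adjusted p = 0.0109). Genes with the most similar course over the 18 libraries were looked for among tested genes outside the 10, leaving out predicted genes and clone names. For the mean of S100a8 and S100a9 they were Nlrp12 (Pearson r = 0.976), the chemokine receptor gene Cxcr2 (0.970), Il1f9 (0.964), Stfa2l1 (0.961) and Has1 (0.956). For Ngp, the tested one of the 3 secondary granule genes, they were Csf3 (0.965), which encodes the neutrophil growth factor G-CSF, Tiparp (0.951), Eif2b2 (0.937), Pgf (0.934) and Pim1 (0.934). These libraries share group means, so the values are descriptions.

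Of 14 receptors and partners of the alarmins and granule proteins, 11 were tested, and 5, 7 and 9 were called higher and 1, 2 and 1 lower at 6, 24 and 72 h (medians 0.45, 1.03 and 1.56), where the share of all genes called also grew from 28.4% to 43.8% and 66.4%. Myd88, the adaptor of Toll-like receptors, was 9.82 ± 0.593 CPM in sham, 30.2 ± 4.17 at 6 h and 29.1 ± 2.29 at 72 h. Lrp1, an endocytic receptor that binds lactoferrin, was called at 24 h (edgeR log2 fold change 0.58 with SE 0.13, adjusted p = 0.00136) and 72 h (1.72, SE 0.13, adjusted p = 2.69e-09), and Cap1, a receptor for human resistin, at each of the 3 times, reaching 1.93 (SE 0.18, adjusted p = 6.78e-08) at 72 h. For the formyl peptide receptor family and its ligands, 5 of 9 listed genes were in the table and 4 were tested, of which 2, 2 and 4 were called higher and 0, 1 and 0 lower (medians 0.31, 0.59 and 1.85). Anxa1, annexin A1, an anti-inflammatory ligand of FPR2, was 21.7 ± 2.44 CPM in sham hearts, 30.1 ± 6.40 CPM by 6 h, 46.0 ± 1.51 by 24 h and 170 ± 14.9 by 72 h. Saa3, an acute-phase serum amyloid, had 1 count in each sham library, 269 to 507 at 6 h, 73 to 824 at 24 h and 1188 to 1336 at 72 h. Hebp1, source of a chemotactic peptide, was lower at 24 h (edgeR log2 fold change -0.72 with SE 0.17, adjusted p = 0.00205) and higher at 72 h (0.56, SE 0.16, adjusted p = 0.00446).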

How the data were processed

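RNA was measured in 18 libraries, 1 per mouse. The authors deposited whole read counts per Ensembl gene and FPKM values, for the series and again for each sample (0 values differed, and 0 columns went unmatched). Per the submitters' processing notes, cutadapt 1.18, HISAT2 2.1.0, featureCounts and mm10 were used; the annotation and strand setting are not given in the sources used here. In the deposited tables, 6 h replicates 2 and 3 are exchanged between FPKM and counts (each FPKM column matched the other's counts in 100% of 10452 genes). Which table labels them rightly cannot be told, the numbers here follow the counts, and FPKM served only for transcript lengths and as an alternative. Of 30583 IDs, 30489 had a symbol. Counts went into edgeR 4.0.16 under R 4.3.3 (filterByExpr, which removed 14272 genes; TMM; robust quasi-likelihood fit of 6 group means to 18 libraries; two-sided tests; Benjamini-Hochberg over 16311 genes). A library's TMM factor ran from 0.825 to 1.43, and mitochondrial genes took 8.41% to 27.4% of counts. Reads carry no molecular identifiers, so counting intervals (exact, 95%) and the floor of 3 counts cover counting error only. Ratios are printed in place of fitted folds where a group held 1 to 3 counts. Alternatives used limma 3.58.1 and DESeq2 1.42.0. The test was checked on simulated data, for 24 h against sham only. Changes were set in genes with more sham counts than Retnlg, Ly6g, Ngp, Camp, Ltf, Fpr1 and Fpr2 had, so the check does not cover these. The simulated spread was the dispersion of the fit, not each gene's own spread between mice. At 24 h S100a8 and S100a9 had an SD of log2 CPM of 2.21 and 2.33, where the median gene had 0.25. The check thus does not cover S100a8 and S100a9 either. The 10 genes and the lists were chosen with earlier results of these data known. By rule, each other list is given by counts and by the 3 genes with the smallest F-test p; Mpo, Elane, Csf3r and Fpr3 were named after their values were seen. Replicates are separate mice.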

Additional observations from a re-analysis of the deposited data

Results flagged for a closer look

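The difference between 2 times after ligation, each against sham, was itself past the test's threshold for 7 genes from 1 h to 6 h and for 7 genes from 24 h to 72 h. Of all genes tested, 14.5% were called higher in the first comparison and 26.1% lower in the second. With 1 library left out, the counts ranged from 4 to 8 and from 2 to 8. From 1 h to 6 h the edgeR log2 differences were 4.67 for S100a8, 4.58 for S100a9, 5.30 for Lcn2, 3.61 for Retnlg, 3.46 for Ngp and 4.57 for Fpr2, and Ly6g was at least 9.42-fold higher than 3 counts per library. From 24 h to 72 h they were -3.15 for S100a8, -3.21 for S100a9, -4.48 for Lcn2, -5.69 for Retnlg, -3.29 for Ngp, -2.57 for Fpr1 and -2.13 for Fpr2. In the second set only Lcn2 separated the 3 libraries of 24 h from the 3 of 72 h among the called genes.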

How the results depend on the processing

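The counts of called genes at 10 min, 1 h and between them were 0 with every single library left out, and ranged from 7 to 8 at 6 h, 6 to 8 at 24 h and 0 to 3 at 72 h against sham. Of all genes tested, at most 0.257% were called in the early fits. At 6, 24 and 72 h the shares were 18% to 28.5%, 33.6% to 46.2% and 61.4% to 63.2%. The counts ranged from 4 to 8 for 6 h against 1 h, 0 to 3 for 24 h against 6 h and 2 to 8 for 72 h against 24 h. Beside them, 15.4% to 25.1%, 22.3% to 30.8% and 43.4% to 51.5% of all genes were called. With only the 6 libraries compared in the fit, 3 genes were called at 1 h against sham (S100a8, S100a9 and Retnlg) and 4 for 72 h against 24 h. Of all genes tested, 1.28% and 40.2% were called in these 2 fits. Without the filter on low counts, 1 was called at 72 h against sham, beside 35% of all genes. For 24 h against 6 h, limma on log2(FPKM + 0.1) and on log2(FPKM + 1) called 2 genes each, beside 41.3% and 39.8% of all genes. Leaving out both 6 h replicate 1 and 24 h replicate 3 called 3, beside 22.6% of all genes. For 72 h against 24 h these 3 settings called 2 each, beside 55.3%, 57% and 53.8% of all genes. The cause was not tested. The direction from 6 h to 24 h, called for none of the 8 genes, turned as follows. With 1 library left out, the log2 difference ranged from -2.11 (no 24 h replicate 3) to 0.47 (no 6 h replicate 1) for S100a8, from -2.25 to 0.43 for S100a9 and from -2.65 to 0.43 for Retnlg on the same libraries. For Lcn2 it ranged from -0.85 (no 24 h replicate 3) to 0.10 (no 24 h replicate 2), and for Fpr1 from -1.14 and Fpr2 from -1.37 (no 24 h replicate 3) to 1.95 and 1.44 (no 6 h replicate 1). Without 24 h replicate 2 it was 0.03 for S100a8 and 0.05 for Retnlg. With 6 h replicate 1 and 24 h replicate 3 both left out it was -0.32 for Fpr1 and -0.48 for Fpr2. Scaling by library size gave 0.05 for Lcn2; it moved the median of all genes to 0.61 at 72 h against sham and called 79.9% of called genes higher, where TMM gave 0.03 and 51.4%. At 24 h against 6 h it gave 0.33 and 88%, where TMM gave 0.02 and 50.9%. Per 100 counts of Csf3r the log2 difference from 24 h to 72 h was -1.66 for Fpr1 and -1.21 for Fpr2. From 6 h to 72 h it was -1.57 and -1.66, and from 6 h to 24 h -0.45 for Fpr2, -1.22 for Lcn2 and -1.56 for Retnlg; per 100 counts of S100a8 it was -0.05 for Retnlg. The replicate numbers were not taken to pair the mice. Over 45 pairs of libraries with the same number the correlation of deviations was -0.26 to 0.25 (median 0.04), with 4 over 0.1. Over 90 pairs with different numbers it was -0.35 to 0.45 (median -0.01), with 9 over 0.1. These values alone do not show how the mice were handled. With the number as a replicate block, 8, 7 and 4 genes were called at 6, 24 and 72 h against sham, 7 for 6 h against 1 h, 5 for 72 h against 24 h and 0 in the other 4 comparisons. Of all genes, that fit called 27.8%, 43.5%, 66.1%, 24% and 49.9% in the order named, and 0.0858% to 27.3% in the other 4. Depth limits Camp, Ltf and the sham levels of Ly6g, Ngp and Fpr1, which rest on 0 to 4 counts a group.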

Other observations

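Transcripts of other S100 proteins, calcium-binding relatives of the alarmins, were called higher more often at 24 h and 72 h than at 6 h, as were all genes tested (16.3%, 23.7% and 34.2% called higher at 6, 24 and 72 h). Of 14 listed, 8 were tested, and 2, 5 and 6 were called higher and 0, 1 and 1 lower at 6, 24 and 72 h against sham (medians of log2 fold change 0.12, 0.97 and 1.10). From 30.9 ± 3.32 CPM in sham, S100a11 reached 73.0 ± 21.4 CPM at 6 h, 117 ± 36.9 by 24 h and 215 ± 11.9 by 72 h (SD, n = 3). S100a10, the partner of annexin A2, went from 36.9 ± 1.65 to 117 ± 6.29 CPM at 72 h, and S100a6 from 27.9 ± 2.91 to 127 ± 5.48 CPM. S100a1, the form abundant in heart muscle, was 543 ± 42.3 CPM in sham and 524 ± 57.9 CPM at 6 h, then 336 ± 69.1 by 24 h and 178 ± 29.7 by 72 h, and was named after its values were seen. It fell by 1.61 on the log2 scale at 72 h (SE 0.14, edgeR adjusted p = 1.83e-08), while the 8 cardiomyocyte markers summed to 57900 to 63000 CPM in sham and 15200 to 20100 CPM at 72 h; their part in the fall was not tested.

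Transcription factors of granulocytes were tested in 10 of 11 genes, and 8, 9 and 8 were called higher at 6, 24 and 72 h, none lower (medians 1.62, 1.54 and 1.63). The shares of all genes tested that were called at these times were 28.4%, 43.8% and 66.4%, with 16.3%, 23.7% and 34.2% called higher. Stat3, which acts downstream of the G-CSF receptor, was 119 ± 3.24 CPM in sham, 330 ± 65.6 at 6 h and 147 ± 10.0 at 72 h, where it was not called (edgeR adjusted p = 0.0765). Spi1, which encodes PU.1, went from 8.32 ± 1.45 to 23.8 ± 9.69 at 6 h and 111 ± 3.88 CPM at 72 h, and Cebpa from 9.87 ± 2.16 to 17.2 ± 2.69 and 128 ± 18.1 CPM. Cebpe, the factor of secondary granule genes in the marrow, had 0 to 3 counts per library at 6 h, 7 to 46 at 24 h and 16 to 19 at 72 h, and was also named after its values were seen.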
